A study of Mus musculus with 6 samples.

Results

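Pf4 and 7 further genes of CXC chemokines, Ppbp, Cxcl1, Cxcl2, Cxcl10, Cxcl12, Cxcl14 and Cxcl16, were followed in sorted cells of the mouse embryo, 8 of the 51912 genes listed in the count files. They were found by gene symbol and compared between cells with and without CD206 at their surface (the mannose receptor, encoded by Mrc1). The cells came from the aorta-gonad-mesonephros (AGM), a site beside the embryonic aorta where blood stem cells first form, of MacGreen embryos at day E10.5. MacGreen embryos carry a Csf1r-EGFP transgene, so that the Csf1r promoter marks macrophages, but also other myeloid cells and some precursors, as GFP-positive, and all 6 libraries are of GFP+ cells. GFP+CD206+ cells (CD206pos) and GFP+CD206- cells (CD206neg) were each sequenced from 3 litters, 3 libraries per group, and a library pooled cells from 3 to 5 AGM. Libraries held 16730846 to 18214283 reads in genes. Levels are given as CPM, a gene's reads scaled to the reads of its library in genes, with TMM scaling, and a fold change above 1 means a higher level in CD206pos. Mrc1 was at 1456, 1790 and 1503 CPM in the CD206pos libraries of litters 1, 2 and 3, against 51.5, 118 and 111 CPM in the CD206neg libraries, which is a check of the sort and no finding. Of 10 macrophage marker genes, all had reads in both groups and 6 were higher in CD206pos (0 without litter 2, with 8 at an unadjusted p under 0.05), and their summed level was 8711 to 12056 CPM in CD206pos and 4442 to 5578 CPM in CD206neg. Of 8 granulocyte genes, Mpo among them, 5 could be tested and all 5 were lower in CD206pos (2 with limma-voom, and 0 without litter 2 with 5 at an unadjusted p under 0.05), with a summed level of 17.3 to 69.6 CPM in CD206pos and 1854 to 2828 CPM in CD206neg. Over all 12668 genes tested, 2.97% were higher in CD206pos and 1.90% lower at an adjusted p under 0.05 in edgeR's test. Without litter 2, only 3 genes in all were called (2 higher and 1 lower), so that a call lost there is not particular to a list. How many of all genes had an unadjusted p under 0.05 was not counted. In such bulk libraries, fewer cells of a type and less RNA per cell cannot be told apart.

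Chemokines are small secreted proteins that guide migrating cells through G-protein-coupled receptors and that are held on heparan sulphate at cell surfaces. Among the CXC class, those with a glutamate-leucine-arginine motif (Cxcl1, Cxcl2 and the product of Ppbp) act through Cxcr2 on neutrophils, Cxcl10 acts through Cxcr3, Cxcl12 through Cxcr4 and Ackr3, and Cxcl16, which is made as a membrane protein, through Cxcr6. Platelet factor 4, the product of Pf4, is best known from the granules of megakaryocytes and platelets, where it is stored with the product of Ppbp. Some resident macrophages also express Pf4.

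Most of these genes lie in a row on chromosome 5 (GRCm38, coordinates of the count files). Ppbp (ENSMUSG00000029372.7) spans 90768518 to 90770063, and Pf4 (ENSMUSG00000029373.7) spans 90772435 to 90773383, only 2371 bases further on the same strand. Cxcl1 (ENSMUSG00000029380.11, 90891241 to 90893115) and Cxcl2 (ENSMUSG00000058427.10, 90903871 to 90905938) lie 10755 bases apart in the same cluster and on the same plus strand. Cxcl10 (ENSMUSG00000034855.13, 92346638 to 92348889, minus strand) is further along the chromosome. Cxcl12 (ENSMUSG00000061353.11) is on chromosome 6 at 117168535 to 117181367, Cxcl16 (ENSMUSG00000018920.11) on chromosome 11 at 70453983 to 70459984, and Cxcl14 (ENSMUSG00000021508.10) on chromosome 13 at 56288647 to 56296551.

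The 250 bases before the start of 5 of the genes are shown, from RefSeq on build GRCm38.p6, because Ppbp and Pf4 are neighbours with unlike values below, while Cxcl1, Cxcl2 and Cxcl10 hold a motif that the windows of Ppbp and Pf4 do not. Capitals mark the letters of 3 motifs searched on both strands, a kB-type motif (GGGA, any 2 bases, then TTCC), a GATA motif (GATAA) and an interferon response motif (GAAA, any 2 bases, then GAAA), and the sequences run 5′ to 3′ on the strand of the gene.
Pf4, chr5:90772185-90772434, plus strand: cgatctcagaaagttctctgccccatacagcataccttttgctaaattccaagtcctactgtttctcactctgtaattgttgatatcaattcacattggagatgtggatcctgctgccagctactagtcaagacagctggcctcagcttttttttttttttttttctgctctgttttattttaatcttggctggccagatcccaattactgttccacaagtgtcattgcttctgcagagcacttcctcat
Ppbp, chr5:90768268-90768517, plus strand: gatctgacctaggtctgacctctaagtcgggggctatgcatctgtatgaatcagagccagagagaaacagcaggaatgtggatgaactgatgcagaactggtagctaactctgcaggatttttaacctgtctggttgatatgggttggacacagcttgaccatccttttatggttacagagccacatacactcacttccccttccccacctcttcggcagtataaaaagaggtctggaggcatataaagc
Cxcl1, chr5:90890995-90891244, plus strand: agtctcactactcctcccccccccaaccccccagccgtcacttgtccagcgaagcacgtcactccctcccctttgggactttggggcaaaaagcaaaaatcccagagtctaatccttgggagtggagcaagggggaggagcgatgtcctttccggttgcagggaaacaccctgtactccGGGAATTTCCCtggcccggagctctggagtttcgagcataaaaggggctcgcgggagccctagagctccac
Cxcl2, chr5:90903649-90903898, plus strand: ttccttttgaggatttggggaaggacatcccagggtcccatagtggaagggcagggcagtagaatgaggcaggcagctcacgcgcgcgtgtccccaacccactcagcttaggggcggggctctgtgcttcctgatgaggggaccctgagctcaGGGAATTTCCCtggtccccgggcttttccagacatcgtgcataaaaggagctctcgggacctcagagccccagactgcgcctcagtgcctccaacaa
Cxcl10, chr5:92348890-92349139, minus strand: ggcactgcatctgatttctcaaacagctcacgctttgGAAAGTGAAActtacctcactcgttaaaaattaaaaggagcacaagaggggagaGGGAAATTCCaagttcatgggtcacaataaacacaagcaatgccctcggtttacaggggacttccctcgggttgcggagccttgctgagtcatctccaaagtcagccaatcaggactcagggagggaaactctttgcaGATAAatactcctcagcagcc
The RefSeq starts lie further on than those of the count files for 2 of the genes, so that the last 4 bases shown for Cxcl1 and the last 28 for Cxcl2 are inside the gene there. The kB-type letters were found in the windows of Cxcl1, Cxcl2 and Cxcl10, 3 of the 7 genes with a RefSeq window, against 1.21% of 32851 RefSeq windows of 250 bases. Cxcl1 and Cxcl2 hold the same 11 letters, GGGAATTTCCC, where matches on the 2 strands overlap, at -71 to -61 and at -97 to -87 from the start. In Cxcl10 the kB-type letters stand at -159 to -150 and the interferon response letters, GAAAGTGAAA, at -213 to -204, a motif in 2.98% of all windows. GATAA stands at -21 to -17 in Cxcl10 and is in 22.6% of all windows. None of the 3 motifs was found in the windows of Pf4, Ppbp and Cxcl12, and Cxcl14 held the interferon response letters alone. These matches describe letters, not bound sites.

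**Figure D1:**
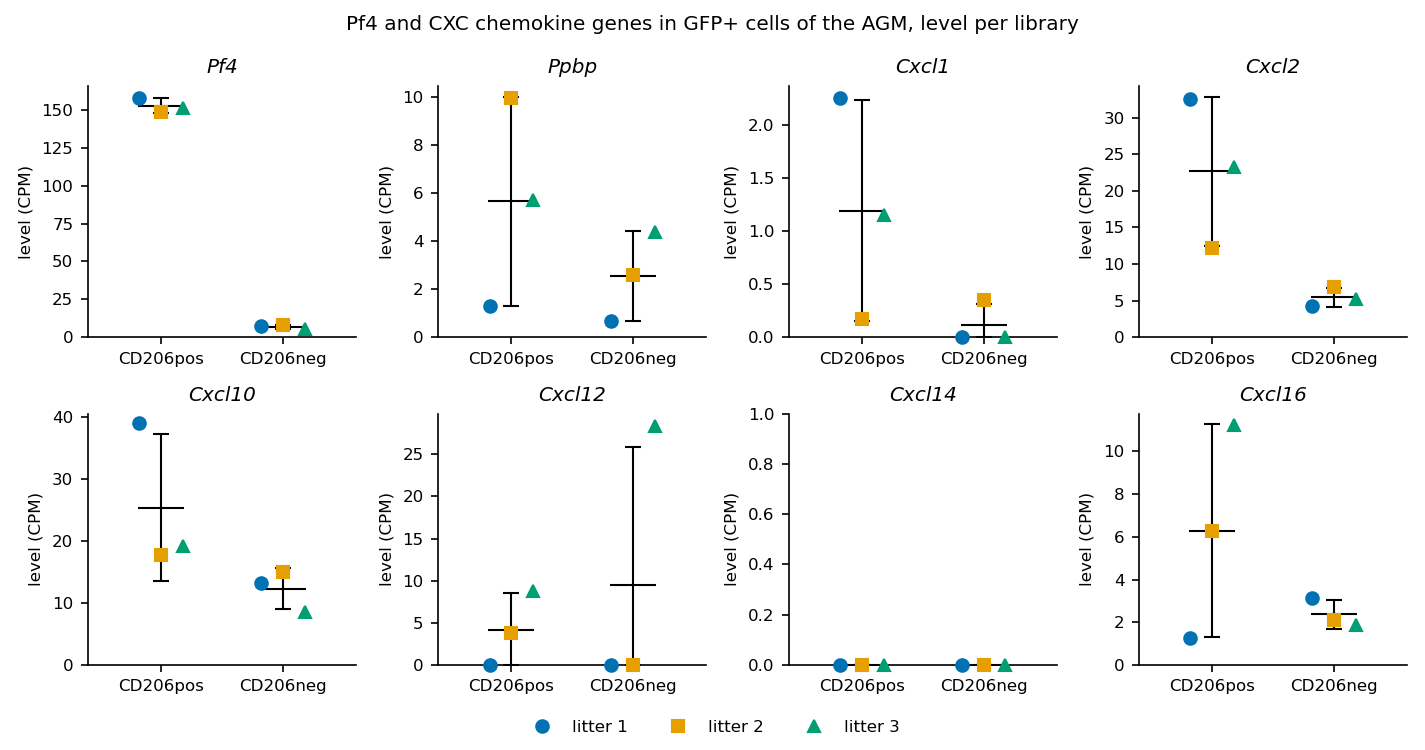
Level (CPM, vertical axis from 0) of the 8 genes in each library, with CD206pos left of CD206neg; points are litters, the horizontal mark is the mean of 3 libraries and the whiskers its SD, cut at 0. Pf4 is between 149 and 158 CPM in CD206pos and between 5.06 and 8.04 CPM in CD206neg, whereas Ppbp, Cxcl1, Cxcl12 and Cxcl16 overlap between the groups.

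Pf4 was higher in CD206pos than in CD206neg cells in each fit run, Cxcl2 was called higher in edgeR's test but in only 8 of 18 alternative fits, and no CXC ligand gene was called lower by edgeR, DESeq2 or limma-voom or had a lower level at an unadjusted p under 0.05. Of the 8 genes, 6 had enough reads to be tested over all genes, and 2 of these 6 were called higher at an adjusted p under 0.05. Pf4 alone was called with the litter as a block, with limma-voom and in 8 of 9 fits without a library or litter. In the fits without a library or litter the number of the 8 genes tested varied. Over all 12668 genes tested, 2.97% were called higher, 1.90% lower and 4.87% in either direction. The median log2 fold change of the 6 was 1.28, against -0.0043 for all genes tested. Cxcl1 and Cxcl14 had too few reads for the test. The groups did not overlap for 3 of the 6, Pf4, Cxcl2 and Cxcl10, each with every CD206pos library above every CD206neg library, a pattern that 12.8% of all tested genes showed.

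Pf4 was at 158, 149 and 151 CPM in the CD206pos libraries of litters 1, 2 and 3, against 7.18, 8.04 and 5.06 CPM in the CD206neg libraries. The groups were far apart, and no CD206neg library came near the CD206pos range. The means were 153 ± 4.94 CPM in CD206pos and 6.76 ± 1.53 CPM in CD206neg (SD, n = 3 each), a fold of 22.6 and a log2 fold change of 4.49 ± 0.23 (SE, edgeR adjusted p = 0.000108). Within litters 1, 2 and 3 the CD206pos library was 22-fold, 18.5-fold and 29.8-fold above its CD206neg partner. Among the 8259 tested genes with at least 10 CPM in CD206pos, 4 had a larger log2 fold change. Pf4 remained called in all 18 alternative fits, with adjusted p values of at most 0.0257, the value without litter 2.

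The 3 CD206pos libraries also lay close together in Pf4. Its coefficient of variation over them was 3.24%, and of the 2598 tested genes whose CD206pos mean lay between 76.3 and 305 CPM, 82 had a smaller one (median 14.7%). In CD206neg the coefficient of variation of Pf4 was 22.7%. No other of the 7 genes was so even in CD206pos, where the values ranged from 45.1% for Cxcl2 to 105% for Cxcl12, with Cxcl14 at 0. Macrophage markers varied in different ways over the same libraries of litters 1, 2 and 3. Csf1r was at 1617, 2397 and 2828 CPM and lowest in litter 1, as were Adgre1, Cd68, Fcgr1, C1qa, Ptprc and Cx3cr1. The summed level of the 10 markers was also lowest in litter 1 (8711, 10768 and 12056 CPM). The complement gene C1qb was at 3184, 2977 and 3461 CPM and lowest in litter 2, as were Aif1 and Mertk.

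Ppbp, which encodes the precursor of the platelet chemokine NAP-2 and ends 2371 bases before Pf4 begins, was at a far lower level. It was at 1.28, 9.95 and 5.72 CPM in the CD206pos libraries, against 0.653, 2.60 and 4.39 CPM in the CD206neg libraries. The groups overlapped, with litter 1 lowest in both. The means were 5.65 ± 4.34 CPM in CD206pos and 2.55 ± 1.87 CPM in CD206neg (SD, n = 3 each), and the log2 fold change of 1.15 ± 0.90 did not pass (edgeR adjusted p = 0.603). It was 0.45 without CD206pos replicate 2, 0.44 without litter 2, 0.69 without CD206neg replicate 1, 1.79 without CD206neg replicate 3 and 1.76 without litter 3, none of them called. Per exon length, there were 185, 22.4 and 39.7 Pf4 transcripts for each Ppbp transcript in CD206pos, against 16.5, 4.64 and 1.73 in CD206neg. The difference of the mean log2 ratio was 3.43, with every CD206pos library above every CD206neg library. An exact 2-sided permutation test over the 6 libraries, without the litter pairing, gave p = 0.10, the smallest p that 3 against 3 allows. Pf4 separated the groups far more than Ppbp, so this test adds nothing to the Pf4 difference. The ratios of litter 1 rest on 21 Ppbp reads in CD206pos and 12 in CD206neg.

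Since megakaryocytes and platelets are the classical source of Pf4, their genes are set beside it. Of 14 megakaryocyte and platelet genes, 10 had at least 1 read in CD206pos and 12 in CD206neg, and their summed level was 25.6, 20.9 and 19.3 CPM in CD206pos, against 214, 177 and 177 CPM in CD206neg. Of the 7 tested, 3 were lower in CD206pos, against 1.90% of all genes tested, none was higher, and 4 did not pass. Their median log2 fold change was -3.66. Gfi1b, a transcription factor gene of erythroid and megakaryocyte cells, had 0 reads in each CD206pos library, against 28.5, 23.4 and 17.8 CPM in CD206neg (edgeR adjusted p = 0.00108). Against 3 reads over the group it was at least 397-fold lower, a bound that covers counting error only. The granule gene Nbeal2 and the transcription factor gene Nfe2 were the other 2 that fell, 3.44-fold and 12.6-fold. Without litter 2, where only 3 genes in all were called, none of these 3 was called. There, 6 of the megakaryocyte genes were lower at an unadjusted p under 0.05. Itga2b, the gene of the platelet integrin subunit CD41, was at 0, 0 and 3.12 CPM in CD206pos, against 26.5, 18.5 and 18 CPM in CD206neg (edgeR adjusted p = 0.123). The part of megakaryocytes or platelets in the Pf4 level was not tested. Of the 14 genes, the highest CD206neg means were those of Nfe2, Nbeal2, Itgb3, Gfi1b and Itga2b (67.9, 32.7, 27.8, 23.3 and 21.0 CPM). Gp5, a platelet glycoprotein gene, had no read in any library. Gp1ba, Gp1bb, Gp6, Gp9 and Treml1 averaged at most 1.49 CPM in either group. Tubb1 had 11 reads in CD206pos, all in litter 3, and 0 in CD206neg.

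**Figure D2:**
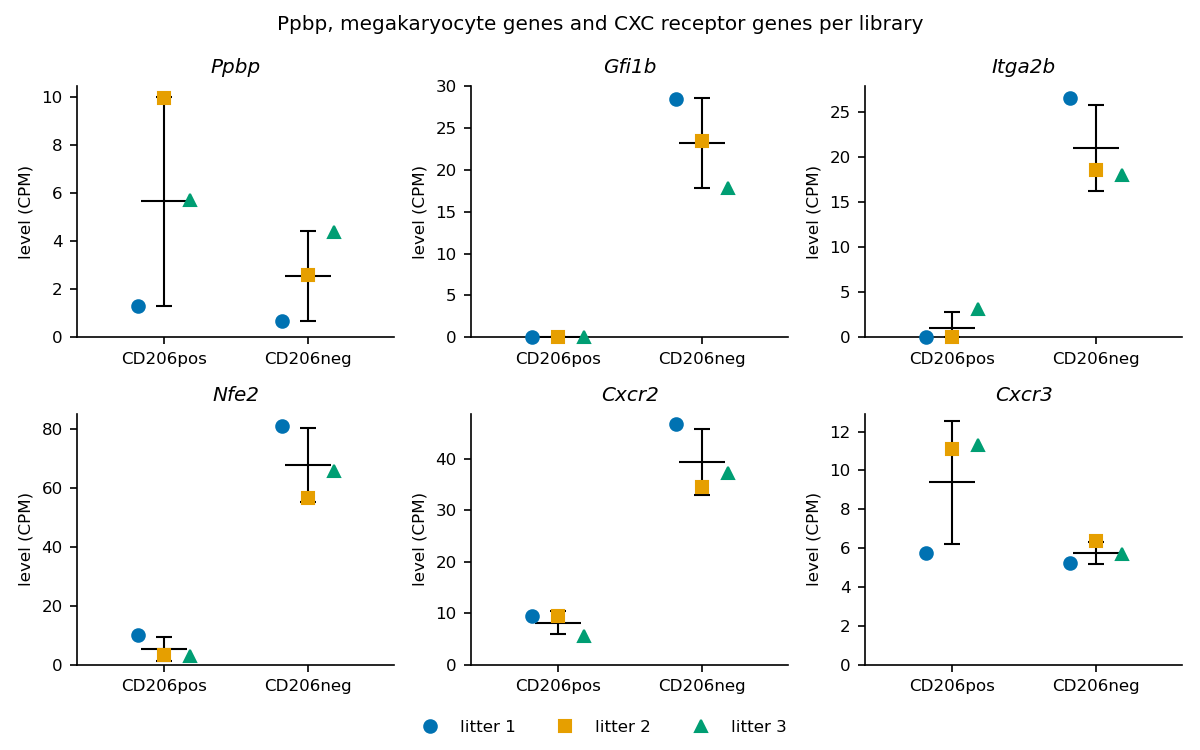
Level (CPM, vertical axis from 0) of Ppbp, of the megakaryocyte genes Gfi1b, Itga2b and Nfe2 and of the CXC receptor genes Cxcr2 and Cxcr3 in each library, with CD206pos left of CD206neg; points are litters, the horizontal mark is the mean of 3 libraries and the whiskers its SD, cut at 0. Gfi1b is at 0 in CD206pos and at 17.8 to 28.5 CPM in CD206neg, and Cxcr2 is lower in every CD206pos library than in any CD206neg library.

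Cxcl2, the macrophage inflammatory protein 2 gene and a neutrophil attractant, was the second gene called. It was at 32.6, 12.2 and 23.2 CPM in the CD206pos libraries, against 4.30, 6.88 and 5.17 CPM in the CD206neg libraries. All CD206pos libraries were above all CD206neg libraries, with litter 2 the lowest of the CD206pos libraries and the highest of the CD206neg libraries. The means were 22.7 ± 10.2 CPM in CD206pos and 5.45 ± 1.31 CPM in CD206neg (SD, n = 3 each), a fold of 4.16 and a log2 fold change of 2.05 ± 0.42 (SE, edgeR adjusted p = 0.0308). Within litters the folds were 7.59, 1.77 and 4.49. With the litter as a block the adjusted p was 0.0699. When single libraries or litters were left out, the call held in 1 of 9 fits, that without CD206pos replicate 2 (adjusted p = 0.0340), and the other 8 gave adjusted p values of up to 0.198. Among 50-base windows of its transcripts, 5.84% also occur in Cxcl3, where reads may map to both genes and then go uncounted.

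Cxcl1, whose product (KC) acts on the same receptor, was close to the detection limit. It had 37, 3 and 20 reads in the CD206pos libraries, against 0, 6 and 0 reads in the CD206neg libraries. Litter 2 stood against the others, with fewer reads in CD206pos than in CD206neg. Over the groups there were 60 reads in CD206pos and 6 in CD206neg, which after scaling to the library sizes is a ratio of 10.4 with an exact 95% binomial interval of 4.53 to 29.6 that covers counting error only. In the 6 alternative edgeR fits that could test Cxcl1, the adjusted p was 0.274 to 0.668 and it was called in 0. Its kB-type letters are the same as those of Cxcl2. The order of the CD206pos libraries was litter 1 above litter 3 above litter 2 in both genes. Cxcl10, with other kB-type letters, had this order too (39.0, 17.7 and 19.2 CPM in litters 1, 2 and 3). Of the NF-kB feedback and immediate early genes counted below, Zfp36 (564, 488 and 521 CPM) and Ier3 (174, 109 and 111 CPM) had it as well. Others did not, among them Nfkbia (334, 280 and 419 CPM). A link between the letters and these levels was not tested. Where a gene averaged 20 to 50 reads over a group, 23.4% of such genes in CD206pos and 19.9% in CD206neg had 0 reads in at least 1 of the 3 libraries, so that a 0 at this depth does not show absence.

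The receptor gene of these ligands was lower in CD206pos. Cxcr2 was at 9.46, 9.44 and 5.66 CPM in CD206pos, against 46.7, 34.5 and 37.2 CPM in CD206neg, a 4.82-fold lower level (log2 fold change -2.27 ± 0.30, SE, edgeR adjusted p = 0.00464), and among 18 alternative fits the call was lost in that without litter 2 (adjusted p = 0.109). The granulocyte genes were lower in the same libraries, and their part in the Cxcr2 difference was not tested. Cxcr1 had no read in any library.

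Immediate early genes, NF-kB feedback genes and the heat shock genes Hspa1a and Hspa1b were counted beside Cxcl1 and Cxcl2, because both chemokine genes are known targets of NF-kB. Of 15 such genes 8 were higher in CD206pos, against 2.97% of all genes tested, none was lower and 7 did not pass. Their median log2 fold change was 1.01. The 4 with the smallest p were Egr1, an immediate early transcription factor gene, at 826 ± 20.7 CPM in CD206pos and 290 ± 35.1 CPM in CD206neg, and Zfp36, Nfkbiz and Nfkbia, which encode feedback regulators of inflammatory transcripts and of NF-kB and were 1.98-fold, 2.59-fold and 2.15-fold higher. Without litter 2, where only 3 genes in all were called, none of the 15 was called and 9 were higher at an unadjusted p under 0.05. The cells of both groups had spent 45 min in collagenase at 37 degrees Celsius before the sort. Macrophage markers were higher in the same libraries, and their part in these differences and in those of Pf4 and Cxcl2 was not tested.

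Cxcl10, the interferon-inducible ligand of Cxcr3, was at 39.0, 17.7 and 19.2 CPM in the CD206pos libraries, against 13.2, 15.0 and 8.61 CPM in the CD206neg libraries. The groups did not overlap, but the CD206pos library of litter 2 was only 1.18-fold above its partner, against 2.95-fold in litter 1 and 2.23-fold in litter 3. The means were 25.3 ± 11.8 CPM in CD206pos and 12.3 ± 3.31 CPM in CD206neg (SD, n = 3 each), and the log2 fold change of 1.04 ± 0.39 did not pass (edgeR unadjusted p = 0.0258, adjusted p = 0.202). Without CD206pos replicate 1 it was 0.58, and without litter 1 it was 0.64. In the count files 5.91% of the exon bases of Cxcl10 also belong to Art3 on the other strand, and reads there are not counted.

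Interferon response genes, which are regulated together with Cxcl10 in many cells, were counted beside it. Of 9 listed, 8 could be tested and none was called in either direction in edgeR's test, with a median log2 fold change of 0.036, and none had an unadjusted p under 0.05. DESeq2 and limma-voom called 0 of them as well, each with 1 at an unadjusted p under 0.05. Cxcl9 and Cxcl11, the neighbours of Cxcl10 on chromosome 5 and the other ligands of Cxcr3, had no read in any library. Cxcr3 itself was at 5.74, 11.1 and 11.3 CPM in CD206pos, against 5.22, 6.36 and 5.68 CPM in CD206neg (edgeR adjusted p = 0.467).

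Cxcl12, the stromal ligand that holds haematopoietic stem cells in their niches, was found in 3 of 6 libraries. It was at 0, 3.78 and 8.72 CPM in the CD206pos libraries, against 0, 0 and 28.4 CPM in the CD206neg libraries. The CD206neg library of litter 3 held 505 reads, more than the other 5 together. The means of 4.17 ± 4.37 CPM in CD206pos and 9.47 ± 16.4 CPM in CD206neg (SD, n = 3 each) did not differ beyond this spread (log2 fold change -1.18 ± 2.07, edgeR adjusted p = 0.856). Its sign turned to 9.18 without CD206neg replicate 3 (adjusted p = 0.217).

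Litter 3 also had the highest summed mesenchymal level, in both of its libraries, mostly from collagen genes. The summed level of 9 mesenchymal markers was 8.61, 2.00 and 62.4 CPM in CD206pos, against 3.21, 9.02 and 77.6 CPM in CD206neg, for litters 1, 2 and 3. The collagen gene Col3a1 was at 0.977, 0.0572 and 30.7 CPM in CD206pos, against 0, 0 and 30.3 CPM in CD206neg, and Col1a1 was at 0.794, 0.343 and 18.7 CPM in CD206pos, against 0, 0.0578 and 17.4 CPM in CD206neg. Other markers differed in order: Dcn, the decorin gene, was highest among the CD206pos libraries in litter 1 (6.47 CPM), and Pdgfrb, a growth factor receptor gene of mural cells, was highest among the CD206neg libraries in litter 2 (8.85 CPM). None of the 5 mesenchymal markers tested was called by edgeR, DESeq2 or limma-voom, and none had an unadjusted p under 0.05 in these tests. The part of such cells in the Cxcl12 level was not tested. Of the receptors of Cxcl12, Cxcr4 had 3, 0 and 9 reads in CD206pos, against 1, 21 and 15 reads in CD206neg, too few for a test, and Ackr3, the scavenging receptor, was at 0, 0 and 1.10 CPM in CD206pos, against 0, 1.21 and 2.25 CPM in CD206neg (edgeR adjusted p = 0.769).

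**Figure D3:**
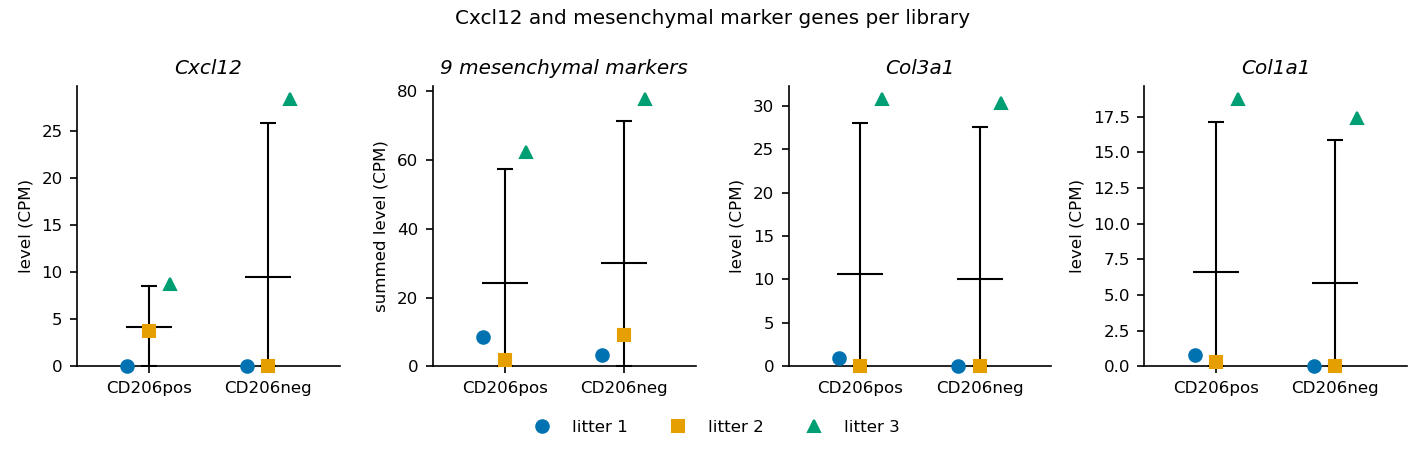
Level (CPM, vertical axis from 0) of Cxcl12, of the sum of 9 mesenchymal markers and of the collagen genes Col3a1 and Col1a1 in each library, with CD206pos left of CD206neg; points are litters, the horizontal mark is the mean of 3 libraries and the whiskers its SD, cut at 0. The libraries of litter 3 are the highest in their group in all 4 panels.

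Cxcl14, a chemokine gene mainly of epithelia and stroma, had no read in any of the 6 libraries, which allows a level of up to 0.163 to 0.183 CPM per library (3 reads, counting error only). Of 4 epithelial markers, 2 had a read in CD206pos and 4 in CD206neg. Krt18 was at 0.855, 0 and 4.91 CPM in CD206pos, against 15.7, 10.9 and 18.4 CPM in CD206neg (edgeR unadjusted p = 0.0310, adjusted p = 0.223). Krt8 overlapped between the groups (edgeR adjusted p = 0.924). DESeq2 called 1 of these 2 lower.

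Cxcl16, whose membrane-bound product also serves as a scavenger receptor, was at 1.28, 6.29 and 11.3 CPM in the CD206pos libraries, against 3.15, 2.08 and 1.86 CPM in the CD206neg libraries. The groups overlapped through litter 1, in which the CD206pos library was 2.46-fold below its partner, while it was 3.02-fold above in litter 2 and 6.07-fold above in litter 3. The log2 fold change of 1.41 ± 0.78 (SE) did not pass (edgeR adjusted p = 0.418). Over the 9 fits without a library or litter it was between 0.51 (without litter 3, adjusted p = 0.918) and 2.15 (without litter 1, adjusted p = 0.151), and it was 0.66 without CD206pos replicate 3 (adjusted p = 0.835). Its exons share 18.3% of their bases with Zmynd15 on the other strand, and reads there are not counted. Adam10 and Adam17, the genes of the proteases that release the soluble chemokine from the membrane, were at 238 ± 44.5 and 252 ± 64.4 CPM in CD206pos and at 205 ± 71.4 and 162 ± 18.5 CPM in CD206neg (SD, n = 3 each; edgeR adjusted p = 0.780 and 0.138). Its receptor gene Cxcr6 had 1 read in all, in a CD206pos library.

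The CD206pos library of litter 1 was thus an extreme for several of the genes, in both directions. It had the highest level of Cxcl1, Cxcl2 and Cxcl10 of all 6 libraries, and the lowest of the CD206pos libraries for Ppbp, Cxcl12 and Cxcl16. Pf4 in it was 158 CPM and differed little from the other 2.

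**Figure D4:**
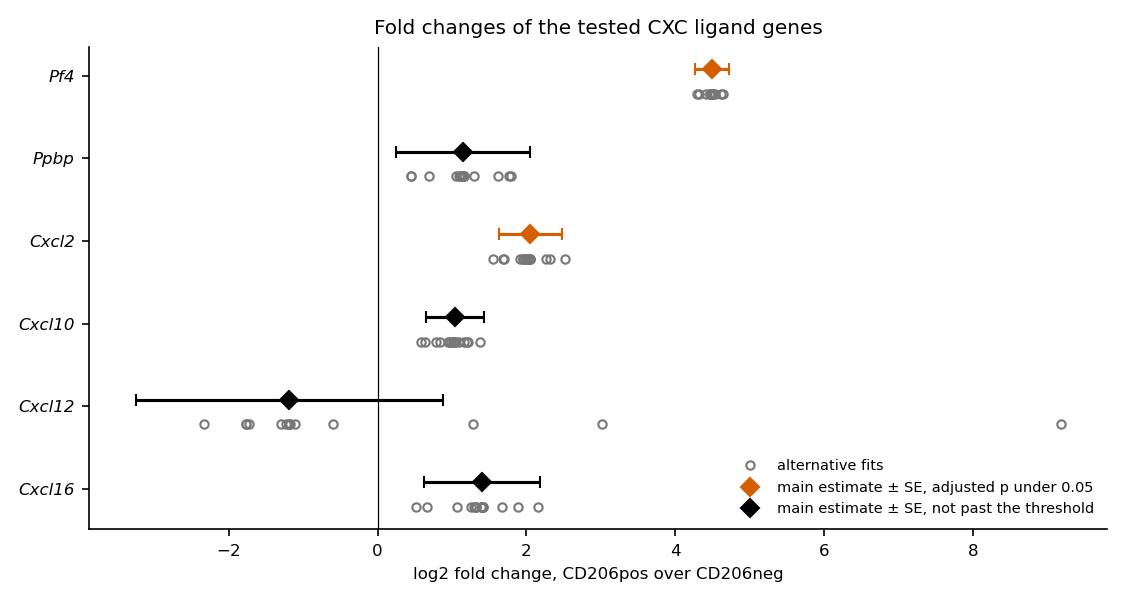
Log2 fold change of CD206pos over CD206neg (horizontal axis) for the 6 tested genes; filled diamonds are the estimate ± SE, orange where the adjusted p is under 0.05, and open circles are the alternative fits in which the gene was tested. The Pf4 estimates stay between 4.30 and 4.64, while those of Cxcl12 lie on both sides of 0.

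Levels of different genes were compared per exon length, in TPM, which divides the reads by the exon length of a gene before scaling to the library. In CD206pos the order was Pf4 at 616 ± 7.95 TPM, Cxcl10 at 32.3 ± 13.6, Cxcl2 at 31.5 ± 13, Ppbp at 15.6 ± 12.3, Cxcl16 at 6.15 ± 4.90, Cxcl1 at 1.81 ± 1.53 and Cxcl12 at 1.51 ± 1.57 TPM, with Cxcl14 at 0 (SD, n = 3). Below Pf4, each level overlapped that of the next gene within 1 SD of each. In CD206neg Pf4 was again first at 29.8 ± 6.79 TPM, followed by Cxcl10 at 17.3 ± 4.70, Cxcl2 at 8.40 ± 2.19, Ppbp at 7.54 ± 5.58, Cxcl12 at 3.72 ± 6.44, Cxcl16 at 2.47 ± 0.66 and Cxcl1 at 0.20 ± 0.35 TPM. There, the steps between Pf4, Cxcl10 and Cxcl2 exceeded 1 SD of each, those from Cxcl2 to Cxcl16 did not, and that from Cxcl16 to Cxcl1 did.

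The 8 genes together summed to 708, 702 and 706 TPM in the CD206pos libraries of litters 1, 2 and 3, against 60.4, 78.9 and 69 TPM in the CD206neg libraries. Pf4 made up 85.9%, 89.0% and 87.3% of this sum in CD206pos, against 50.9%, 45.6% and 32.7% in CD206neg. Cxcl10 made up 3.40% to 6.78% in CD206pos and 17.8% to 30.0% in CD206neg. The CD206neg pool was thus more mixed, and in litter 3 Ppbp (18.9%) and Cxcl12 (16.2%) were large parts of it. These are shares of a sum that is smaller in CD206neg through its lower Pf4 level. The mean TPM of Cxcl10, Cxcl2, Ppbp, Cxcl16 and Cxcl1 was lower in CD206neg than in CD206pos, and only that of Cxcl12 was higher.

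**Figure D5:**
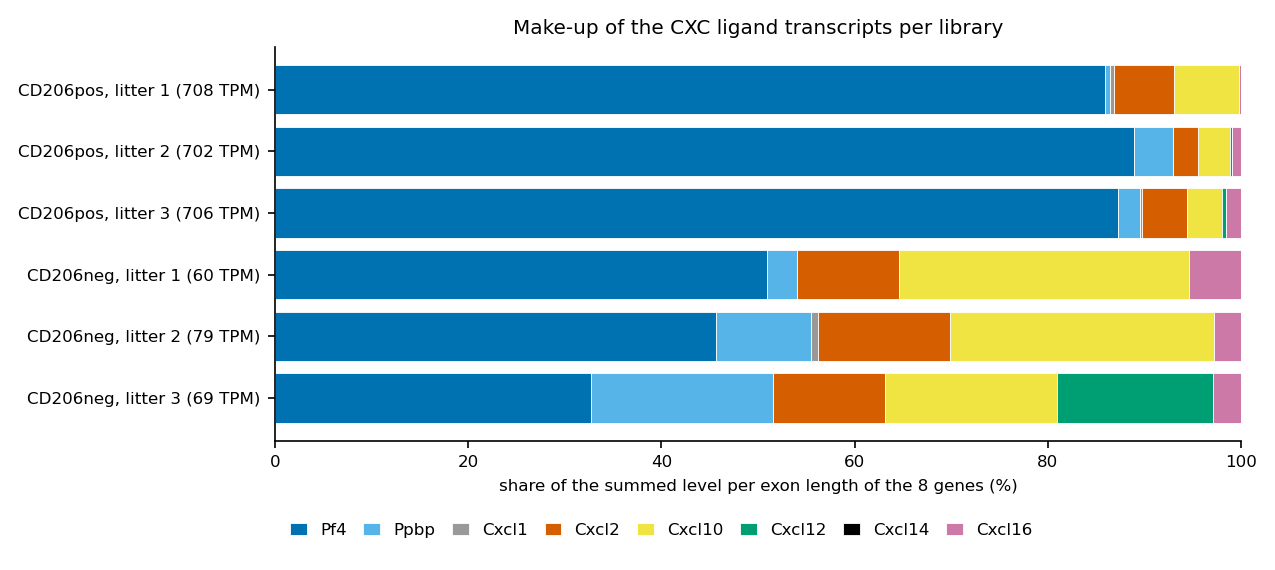
Share (%, horizontal axis) of each of the 8 genes in their summed level per exon length, 1 bar per library with its sum in TPM, the CD206pos libraries above the CD206neg libraries. Pf4 fills 85.9% to 89.0% of the bar in CD206pos and 32.7% to 50.9% in CD206neg.

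The remaining CXC ligand genes were at or near 0. Of Cxcl3, Cxcl5, Cxcl9, Cxcl11, Cxcl13, Cxcl15 and Cxcl17, none had enough reads to be tested, and 4 had no read at all. Cxcl5, the neighbour of Ppbp, had 12, 0 and 15 reads in CD206pos, against 3, 0 and 0 reads in CD206neg, and Cxcl3, the next ligand gene after Pf4, had 10, 0 and 5 reads in CD206pos, against 0, 10 and 2 reads in CD206neg. In the chromosome 5 cluster the high level was thus that of Pf4 and not of the ligand genes on either side of it.

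Of 8 CXC and atypical receptor genes, 5 could be tested. Of these 1 (Cxcr2) was lower, against 1.90% of all genes tested, none was higher and 4 did not pass. Cxcr5, the receptor of Cxcl13, was at 0.794, 2.69 and 4.39 CPM in CD206pos, against 0, 0.578 and 0 CPM in CD206neg (edgeR adjusted p = 0.289), although Cxcl13 had no read. Ackr1, an atypical receptor that binds many inflammatory chemokines, was at 0, 0 and 0.751 CPM in CD206pos, against 0, 0.694 and 1.97 CPM in CD206neg (edgeR adjusted p = 0.738).

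Pf4 binds glycosaminoglycans, and 11 genes of proteoglycan cores and heparan sulphate synthesis were counted. In edgeR's test 1 was higher in CD206pos, against 2.97% of all genes tested, none was lower and 10 did not pass. Their median log2 fold change was -0.19, with 3 higher, the called gene included, and 2 lower at an unadjusted p under 0.05. DESeq2, with 1210 genes called in all, called 2 higher (Sdc4 and Sdc3) and 2 lower (Srgn and Sdc1). The same genes other than Sdc3 were called by limma-voom, with 772 genes called in all. The gene called by edgeR was Sdc4, a cell surface heparan sulphate proteoglycan, at 48.1, 73.2 and 99.3 CPM in CD206pos, against 4.30, 3.82 and 7.31 CPM in CD206neg (edgeR adjusted p = 0.00148, and 0.0872 without litter 2). None of the 5 genes of proteases that cut CXC ligands was called in edgeR's test, with 2 of them higher at an unadjusted p under 0.05 (Adam17 and Mmp9), and DESeq2 called these 2 and limma-voom 0.

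The genes whose log2 CPM followed each member most closely over the 6 libraries were listed as a description. Pf4 was followed by Ltc4s, the leukotriene C4 synthase gene, with a Pearson r of 0.999, and by Egr1 and Npl, the gene of a sialic acid lyase, with r of 0.998 and 0.997. Ltc4s was at 21.5 CPM in CD206pos and 1.95 CPM in CD206neg on average. Cxcl2 was followed by Cd302, Dnase2a and Cryl1 (r of 0.988 to 0.992) and Cxcl10 by Chmp5, Ccl3 and Hmg20b (r of 0.984 to 0.993), Ccl3 being a chemokine gene of the CC class. For Ppbp the closest were Agtpbp1, Sec24c and Zswim8, for Cxcl16 they were Lmf2, Rad50 and Wdr1, and for Cxcl12 they were Peg3, Aktip and Ccnb2. These were the closest of about 8150 genes compared over only 6 points that share the 2 groups and the same libraries.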

How the data were processed

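Per the labels' protocols, AGM of E10.5 MacGreen embryos were digested with collagenase, GFP+ cells were sorted on CD206, and RNA went into standard Illumina libraries. The authors deposited raw read counts per gene for each library, made with featureCounts 1.5.2 on GENCODE M14, per the file headers, without settings for strand or pairs, so that reads of either strand count for a gene and reads that fit several places or genes go uncounted by default. Exon length per gene is another value in the deposited files. Per the submitters' processing notes, STAR 2.3, FastQC and Subread were used, with mm10 and GRCm38.p5 as builds. The sources used here do not give read length, library strand or what was merged before counting.

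Symbols came from GENCODE M21 and matched 51633 of 51912 identifiers. Counts were filtered with filterByExpr, scaled by TMM and tested with edgeR 4.0.16 (robust quasi-likelihood F test, R 4.3.3) over 12668 genes with Benjamini-Hochberg adjustment at 0.05. Standard errors were obtained as the absolute log2 fold change over the root of F. TPM used the deposited exon lengths. DESeq2 1.42.0, limma-voom (limma 3.58.1), other filters and scalings, a litter block and fits without single libraries or litters were alternatives. The fit was tested on simulated data. Floors are 3 reads, and intervals are exact binomial ones that cover counting error only. Promoters are RefSeq windows of 250 bases before to 50 after a start.

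The AGM number in the titles was read as the litter, since the design names 3 litters. Libraries of the same number had deviations correlated by 0.09, 0.04 and 0.18 over genes. Those of different numbers gave -0.15 to 0.06, so that the ranges overlapped. Libraries within a litter may share more than the litter, and a p-value measures the spread between these 3 pools per group. The genes and lists were chosen with earlier results of these data known. All 8 genes are named, as are all CXC ligand and receptor genes on the lists, up to 4 called genes per other list and direction with the smallest p, up to 3 most abundant markers per list, and the 3 genes closest to each tested member by Pearson r of log2 CPM (prior count 2). Itga2b, Gp5, Itgb3, Gp1ba, Gp1bb, Gp6, Gp9, Treml1, Tubb1, Adam10, Adam17, Mmp9, Dcn, Pdgfrb, Hspa1a, Hspa1b, Srgn, Sdc1, Sdc3, C1qb, Ier3, Fcgr1, Ptprc, Aif1 and Mertk, where outside this rule, were chosen after their values were seen. A listed marker gene is not reported here, and the counts and sums of its list leave it out.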

Additional observations from a re-analysis of the deposited data

How the results depend on the processing

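Over the whole table edgeR called 617 genes and DESeq2 called 1210 (660 higher and 550 lower in CD206pos), and leaving out single libraries or litters gave 3 to 561 (2 to 355 higher and 1 to 206 lower), the 3 being without litter 2. Library totals in place of TMM gave 273 higher and 284 lower, so that 49.0% of calls were higher, against 60.9% with TMM. With the litter as a replicate block 703 genes were called. The number of the 8 genes called was 1 with the replicate block, 1 with limma-voom and 1 to 2 in the leave-out fits.

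Pf4 was called in every alternative run. The log2 fold change of Cxcl2 was 1.98 with the replicate block, where its adjusted p was 0.0699. It was 1.69 with limma-voom, where its adjusted p was 0.0617, and 1.55 to 2.52 in the leave-out fits, and the cause was not tested. The block changed no other call among the 8 genes. The log2 fold change of Cxcl12 turned to 1.29 with the replicate block (adjusted p = 0.836), 3.01 with limma-voom and 9.18 without CD206neg replicate 3, which holds most of its reads, and over all leave-out fits it ranged between -2.33 and 9.18. Mean Cxcl1 was 0.663 to 1.71 CPM in CD206pos and 0 to 0.173 CPM in CD206neg when single libraries were left out. The GATA letters were found 0 times in the 250 bases before Pf4 and 1 time when the 50 bases after its start were added. The filter at 5 CPM left Ppbp, Cxcl12 and Cxcl16 untested. Cxcl14, with 0 reads in all libraries, allows no comparison at this depth.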
